A study of Homo sapiens with 8 samples.

Results

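The genes described here are the 42 human protein-coding genes named as tiers of the MAP kinase cascade: 5 MAP4K, 17 MAP3K, 7 MAP2K and 13 MAPK genes, out of 20056 protein-coding genes in the RefSeq table of GRCh38.p14. They were chosen by their symbols alone, and MAP3K7, which other RBFOX2 work names as a target, was left out of the choice. A peak belonged to a gene when its midpoint lay in the gene's annotated span and it was on the gene's strand. In all, 4215 of 1118316 called peaks belonged to these genes, and 41 of the 42 had at least 1. Only MAP3K19 had none.

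The study used eCLIP to find the RNA that RBFOX2 touches in HEK293T, an established human embryonic kidney cell line, in 4 immunoprecipitated (IP) libraries and 4 inputs. The cells were exposed to ultraviolet light of 254 nm at 400 mJ per square centimetre, which fixes proteins to the RNA they touch, and the lysate was incubated with an antibody to RBFOX2. The input was 2% of the sample, and the authors set each IP against the input of the same number. All samples are of this 1 line, and the labels name no other treatment and no edited gene. Nothing says whether the 4 replicates came from separate cultures, so every limma p-value below measures only the spread between these libraries. The p-values of single peaks are the authors' own, each from 1 IP set against its input.

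MAP kinases are the last step of a relay of protein kinases that carries signals from growth factors, cytokines and stress to enzymes and transcription factors. In each branch a MAP3K phosphorylates a MAP2K, which in turn phosphorylates a MAPK, and MAP4K enzymes act on MAP3Ks. The best-known branches end in ERK, in JNK, in p38 and in ERK5. RBFOX2 is a splicing regulator that binds GCAUG, often in introns beside alternative exons, and GCATG is the same motif in DNA letters.

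For every called peak the lists give the log2 fold of IP over input and the −log10 of its p-value. A peak is called enriched here when both were at least 3, that is an 8-fold excess over input. The lists held 267691 to 288305 called peaks per library and also include peaks with no excess. Read depth is unknown, so no counting interval can be given. In most peaks the fold sat at a small whole-number ratio, such as a log2 fold of 1.00 for 2-fold, and ties between libraries are therefore common. As a check of the cell type, all 6 genes listed as expressed in this line had a called peak, but LHX1, KRT8 and KRT18 had only 2, 1 and 1 over the 4 libraries. Of 6 genes of other lineages, only the collagen gene COL1A1 had any, with 12, 9, 9 and 1 in replicates 1 to 4.

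RefSeq windows of 300 bases, from 250 before to 50 after an annotated gene start, were at hand for 38 of the 42 genes, 54 windows in all. Called peaks touched 27 windows of 22 genes, in all 4 libraries for 4 windows: the one of MAPK3, the one of MAPK12 and 2 of MAP2K2. None of these peaks was enriched, and the highest log2 fold was 2.00. The stretches that called peaks of at least 3 libraries covered for 20 bases or more are shown with those bases in capitals, 30 bases each, on the gene's strand in GRCh38. They are the 30 bases chosen from covered stretches of 51, 35 and 38 bases in MAP4K4, MAP2K2 and MAPK12, and shorter covered stretches are not shown. The MAP4K4 stretch is chr2:101698069-101698098, plus strand, the MAP2K2 stretch is chr19:4103304-4103333, minus strand, before a second start inside the gene, and the MAPK12 stretch is chr22:50261642-50261671, minus strand, just inside the gene.
MAP4K4: CAAAAAGGGAAAATGGCGAACGACTCCCCT
MAP2K2: GGTCCCCAGGTTTGTTGCCAGGCAGCCTTG
MAPK12: AGGGAAGGGCCGGGAGCGGGAGCGCCCCAG
The MAPK12 peaks had log2 folds of 0.17, 0.00, 1.00 and 1.32 in replicates 1 to 4. The MAP4K4 peaks had 1.59, 0.00 and 1.58 in replicates 2 to 4, with none in replicate 1. The MAP2K2 peaks that touched the window had 1.58, 1.59, -2.0 and -1.59 in replicates 1 to 4. They lay above input in replicates 1 and 2 and below it in replicates 3 and 4. No base of this window was covered in more than 3 libraries, so these peaks did not all cover the same bases of the stretch shown.

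GCATG on the gene's strand was present in 4 of the 54 windows (7.41%), against 19.6% of all 35116 windows of this length. On either strand it was present in 8, against 29.5% of all windows. The genes with GCATG on their own strand were MAP3K9, MAP3K19, MAPK7 and MAP2K7. The MAP2K7 window held it at -201 to -197 and at -56 to -52, with the first base of the gene counted as 0. Both lie before the start, no called peak covered them, and they are shown because MAP2K7 had the most enriched peaks. The lines are chr19:7903664-7903693 and chr19:7903809-7903838, plus strand, with the motif in capitals.
MAP2K7 first: tcgggaattggcGCATGcgcactacggtgg
MAP2K7 second: tgcgcgccgcggGCATGcgcggtgcggggc
A match is only a match of letters. The regions described below lie outside these windows, apart from the start of MAP2K2, and their sequences were not used here.

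The first question was how much RBFOX2 signal the cascade genes gave. Replicates 1 to 4 gave 975, 1079, 1107 and 1054 called peaks in them (mean 1054 ± 56.8, SD, n = 4). The 4 libraries were close to each other, and 39 genes had a called peak in each. Of the called peaks, 27.2% ± 2.12 were at least 2-fold above input and 6.15% ± 0.876 at least 4-fold (SD, n = 4). Over all called peaks these shares were 27.4% ± 1.25 and 6.86% ± 0.469, which differed from the cascade shares by less than 1 SD of those shares.

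JNK1 (MAPK8) had the most called peaks of the 42 genes, with 68, 68, 72 and 71 in replicates 1 to 4. MAP4K4, a kinase upstream of JNK, had 60, 65, 75 and 64. MAP3K4, a MAP3K of the p38 and JNK branches, had 48, 68, 56 and 62. JNK2 (MAPK9) had 55, 59, 52 and 55, and MAP3K5, the stress kinase ASK1, 50, 55, 53 and 55. These counts overlap between neighbours in the order, so the order is not settled.

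**Figure D1:**
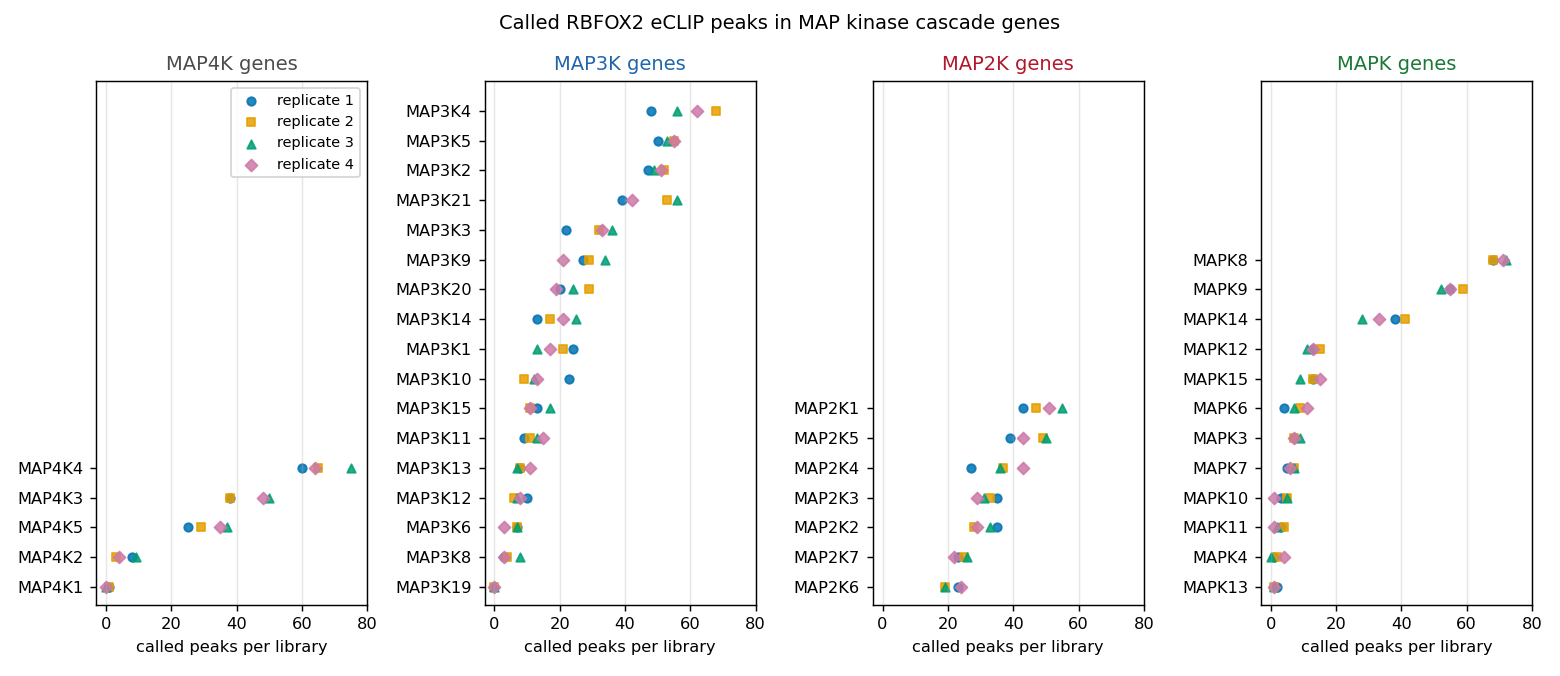
Called peaks per library (x axis) for 41 of the 42 genes, in panels by tier. Each symbol is 1 of the 4 replicates. MAPK8, MAP4K4 and MAP3K4 lie furthest right, and MAP3K19 is at 0 in all 4 replicates. The replicates lie closer together in some genes than in others, with 68 to 72 in MAPK8 and 48 to 68 in MAP3K4.

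Longer genes tended to have more called peaks (Spearman 0.461 between span and count across 41 genes, given as a description, since the peaks of all genes come from the same libraries). MAPK10, the gene of JNK3 and the longest at 584 kb, was an exception with 3, 5, 5 and 1. Relative to span, MAP2K7 was densest with 22.6 called peaks per 10 kb and library, followed by MAPK15 with 20.5, MAPK12 with 14.8, MAPK7 with 10.8 and MAP2K3 with 10.5. Other genes had almost no called peaks. MAP4K1, a kinase of blood cells, had 1, 1, 0 and 0 called peaks, MAPK4 had 1, 2, 0 and 4, and the p38 gene MAPK13 had 2, 1, 1 and 1. A called peak needs RNA to be present. In these bulk lysates fewer cells with a transcript and less of it per cell cannot be told apart.

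Few of these peaks were enriched. The cascade genes held 2, 0, 4 and 0 enriched peaks in replicates 1 to 4, or 6 in all (mean 1.5 ± 1.91 per library, SD, n = 4). That is 0.142% ± 0.176 of their called peaks, against 0.818% of all called peaks (0.861%, 0.848%, 0.789% and 0.775% in replicates 1 to 4). In each of the 4 libraries the share in the cascade genes, 0.205%, 0%, 0.361% and 0%, was below that of the whole list. No enriched peak lay in a MAP4K gene, 1 lay in a MAP3K gene, 4 in a MAP2K gene and 1 in a MAPK gene.

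Only 3 of the 41 genes with a called peak held an enriched one (7.32%), near the 8.5% of all 12935 protein-coding genes with a called peak. The 41 genes had more called peaks, with a median of 85 over the 4 libraries against 44, and the shares are not adjusted for that. Those with an enriched peak were MAP2K7, MAP3K21 and MAPK3. None held an enriched peak in each of the 4 libraries, against 2.76% of all genes. Merged over replicates, the 6 peaks gave 5 regions, of which 4 were enriched in 1 replicate, 1 in MAP2K7 was enriched in 2, and none in 3 or 4. Of the 3371 merged regions of the whole genome, 552 (16.4%) were enriched in all 4.

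MAP3K7, which encodes the kinase TAK1 and was left out of the choice, is set beside them. It had 35, 30, 36 and 33 called peaks, of which 1, 2, 1 and 1 were enriched. Every library thus held an enriched peak in MAP3K7, which was the case for none of the 42 cascade genes. Its gene mean was 0.23 ± 0.09 (SD, n = 4) on the centred scale explained below, with an adjusted p of 0.0302 in limma.

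To use peaks below that threshold as well, same-strand called peaks from any library were merged where they shared 1 nt or more, and the 49493 regions that every library had called were tested against a log2 fold of 0 with limma. In each library a region took the fold of its most significant peak. Peaks below input carry a −log10 p of 0 in the authors' lists, so this choice takes a peak above input where a region holds both kinds. There were 165 such regions in 29 of the cascade genes. Of these, 39 (23.6%) were higher in IP than in input at an adjusted p of at most 0.05, close to the 21.1% of all regions tested. None was lower in limma, also at an unadjusted p under 0.05, against 1.81% of all regions at the adjusted threshold. An alternative added after seeing the data took the mean fold of all its called peaks as a region's value. With it 37 (22.4%) were higher, against 19% of all regions, and none was lower, against 1.81%. At an unadjusted p under 0.05 in limma, none was lower either, against 2493 of all 49493 regions. An excess of at least 2-fold in every library was found for 31 (18.8%), against 17% of all regions. The median of the mean log2 folds was 0.75 in the cascade genes and 0.50 over all regions. These calls need all 4 replicates. Without replicate 1, 2 or 4, no region of the whole genome passed. Without replicate 3, 8 of 211 cascade regions were higher, against 2378 of 63079 regions of the whole genome. In these 4 runs of limma 50 to 62 of the 211 to 214 cascade regions tested had an unadjusted p under 0.05. The like count over all regions is not given here.

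**Figure D2:**
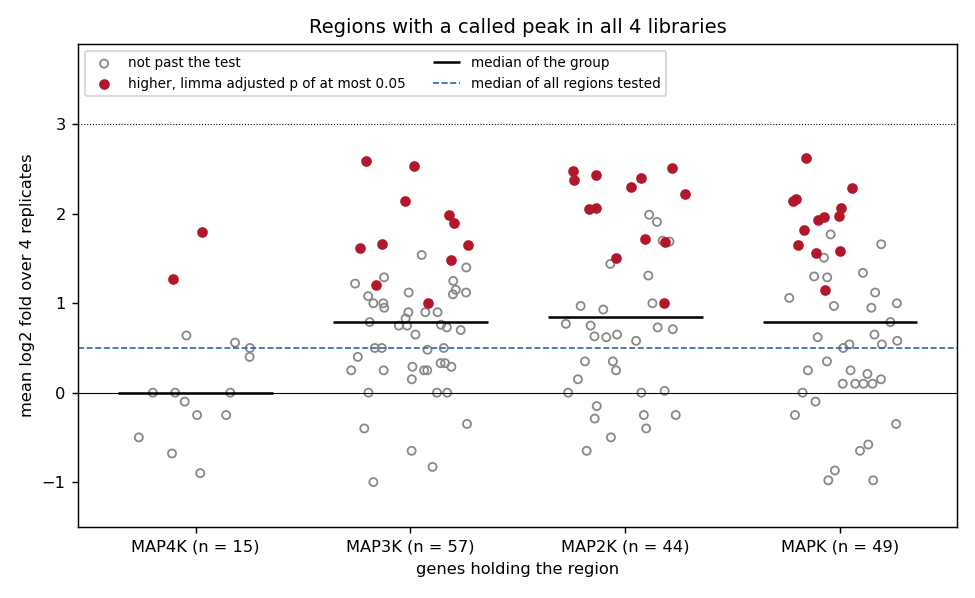
Mean log2 fold over 4 replicates (y axis) of the 165 cascade regions that all 4 libraries called, grouped by the tier of the gene. Filled points passed limma at an adjusted p of at most 0.05, thick lines are group medians, the dashed line is the median of all 49493 regions and the dotted line marks a log2 fold of 3. No region mean reaches 3, and the MAP4K group has 2 filled points.

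Among the MAP4K genes, 2 of 15 regions were higher, both in MAP4K4. The MAP4K region with the highest lowest value was chr2:101870533-101870676 on the plus strand, 173 kb into MAP4K4. Its log2 folds were 1.58, 2.81, 1.81 and 1.00 in replicates 1 to 4. All 4 lay above input, replicate 2 highest and replicate 4 lowest, with a mean of 1.80 ± 0.75 (SD, n = 4, limma adjusted p = 0.0253). None of the 3 regions of MAP4K3, a kinase of nutrient signalling, or of the 5 regions of MAP4K5, a kinase upstream of JNK, passed limma, also at an unadjusted p under 0.05.

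Among the MAP3K genes, 11 of 57 regions were higher. They lay in MAP3K4 (3 of 14), MAP3K5 (2 of 6) and 6 other genes with 1 each: MAP3K2, MAP3K3, MAP3K6, MAP3K10, MAP3K11 and MAP3K21. The region of MAP3K21, the mixed-lineage kinase MLK4, is chr1:233357497-233357878 on the plus strand, 29.8 kb into a gene of 57.4 kb. Its log2 folds were 3.09, 2.74, 2.39 and 1.91 in replicates 1 to 4. Replicate 1 alone reached the enriched class, with a −log10 p of 6.22, and replicates 2 and 3 had −log10 p values of 3.56 and 3.27 but folds below the limit. The mean was 2.53 ± 0.50 (SD, n = 4, limma adjusted p = 0.00698), and all 4 values lay above input. This was the only one of the 7 tested MAP3K21 regions to pass, and the other 6 had means of at most 1.22.

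The highest MAP3K mean was that of a region in MAP3K11, the mixed-lineage kinase MLK3, at chr11:65606944-65607238. Its log2 folds were 2.00, 3.32, 1.59 and 3.46 (mean 2.59 ± 0.94, SD, n = 4, limma adjusted p = 0.0151). Replicates 2 and 4 were over 3, and neither was counted as enriched because their −log10 p was 2.2. The lowest passing MAP3K region, in MAP3K5 at chr6:136745871-136746041, was at a log2 fold of 1.00 in each of the 4 libraries (limma adjusted p = 0.0312). All 4 sit on the same 2-fold step, so their SD of 0.00 reflects the steps of the lists.

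Among the MAP2K genes, 13 of 44 regions were higher, of which 7 of 14 in MAP2K7, 5 of 9 in MAP2K2 and 1 of 4 in MAP2K4. MAP2K7 encodes MKK7, which phosphorylates JNK, and MAP2K2 encodes MEK2, which phosphorylates ERK. No region of MAP2K1, the gene of MEK1, passed limma out of 6, and none of the 7 regions of MAP2K3, a kinase of p38, though each gene had 1 region with an unadjusted p under 0.05.

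MAP2K7 is a gene of 10.6 kb on chromosome 19. It had 23, 25, 26 and 22 called peaks, and 73 of these 96 were at least 2-fold above input, while 2 were at least 2-fold below. Its peaks fell into stretches that all 4 libraries shared. Between 2 and 6 kb from the start there were 14, 11, 15 and 12 called peaks, between 6 and 8.9 kb none in any library, and from 8.9 kb to the end 8, 11, 9 and 10. The 4 enriched peaks lay 2 in each of these filled stretches, which were read off after the values were seen.

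The MAP2K7 region with the highest lowest value, chr19:7913430-7913598, had log2 folds of 2.00, 2.81, 2.59 and 2.11 (mean 2.38 ± 0.38, SD, n = 4, limma adjusted p = 0.00657). All 4 libraries were at least 4-fold above input there. A neighbouring region, chr19:7913655-7913770, had 3.25, 1.46, 3.25 and 1.77 (mean 2.43 ± 0.95, SD, n = 4, limma adjusted p = 0.0178). Replicates 1 and 3 were enriched there with −log10 p values of 3.66 and 3.92, and replicates 2 and 4 were well below. Both regions end less than 1 kb before the end of the gene. The other region with enriched peaks, chr19:7907294-7907502, 3.42 kb from the start, had 2.91, 1.39, 3.09 and 2.22 (mean 2.40 ± 0.77, SD, n = 4, limma adjusted p = 0.0128). There only replicate 3 was enriched, with 2 adjoining peaks of log2 fold 3.70 and 3.09. This region and the one with enriched peaks in 2 replicates are named because they hold the enriched peaks, which was known when they were picked.

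In MAP2K2 the 3 passing regions with all 4 libraries at least 2-fold above input lay 0.621, 2.68 and 22.3 kb from the start. The region at 0.621 kb, chr19:4123107-4123501 on the minus strand, had 2.91, 2.7, 1.42 and 2.91 (mean 2.48 ± 0.72, SD, n = 4, limma adjusted p = 0.0106). The region at 22.3 kb, chr19:4101695-4101844, had 1.58, 3.0, 2.46 and 3.0 (mean 2.51 ± 0.67, SD, n = 4, limma adjusted p = 0.00955). In each, 1 library was clearly lower than the other 3, but not the same one. The region nearest the start, chr19:4123835-4124088, was the lowest to pass in this tier, with 0.74, 1.28, 1.00 and 1.00 (mean 1.00 ± 0.22, SD, n = 4, limma adjusted p = 0.0373). Its call was lost with the mean fold of all its peaks (0.85, limma adjusted p = 0.106).

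Among the MAPK genes, 13 of 49 regions were higher, among them 4 of 8 in MAPK12, 4 of 5 in MAPK3, 2 of 10 in MAPK8 and 2 of 5 in MAPK15. No region of MAPK9 (of 9) or MAPK14 (of 5) passed limma, with 1 and 2 at an unadjusted p under 0.05. MAPK12 and MAPK14 encode p38 kinases, MAPK3 encodes ERK1, and MAPK15 encodes an atypical ERK.

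In MAPK12, chr22:50255696-50255777 on the minus strand had log2 folds of 1.81, 2.42, 2.17 and 2.17 (mean 2.14 ± 0.25, SD, n = 4, limma adjusted p = 0.00669). The 4 libraries lay close together. The gene spans 8.78 kb, and 46 of its 52 called peaks lay from 3.5 kb onward. None was enriched. MAPK11, another p38 gene on the same strand, ends 2.03 kb before MAPK12 begins, and it had only 3, 4, 2 and 1 called peaks.

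In MAPK3 the called peaks lay at the start of the gene. Of 30 called peaks, 29 (96.7%) had their midpoint in the first 1.5 kb of a gene of 9.12 kb, 6, 7, 9 and 7 in replicates 1 to 4. The next highest share among genes with at least 20 called peaks was 38% in MAPK15. The region with the enriched peak, chr16:30122456-30122681 on the minus strand, had 3.17, 1.00, 3.0 and 3.32 (mean 2.62 ± 1.09, SD, n = 4, limma adjusted p = 0.019). It had the highest mean of all 165 regions. By the most significant peak of each library, replicate 2 stood apart at 2-fold while the other 3 were at or above 8-fold. Only replicate 3 passed the limit on p, with a −log10 p of 3.14. The called peaks that overlapped this enriched peak had log2 folds of 3.17, 1.00 and 1.00 in replicates 1, 2 and 4. The 3.32 of replicate 4 came from another peak of the region.

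**Figure D3:**
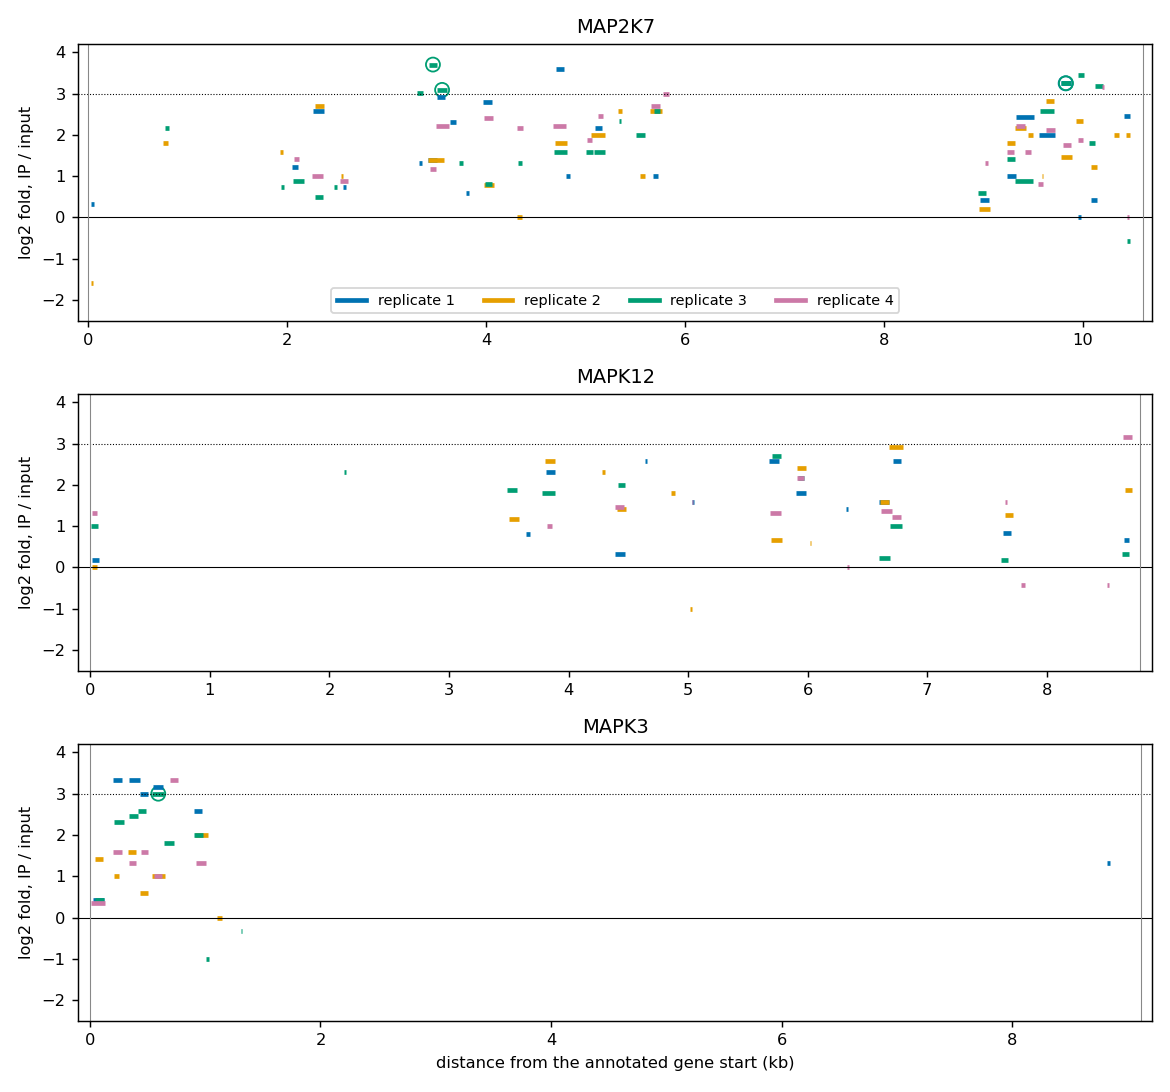
Log2 fold of IP over input (y axis) of every called peak against the distance of the peak from the annotated gene start in kb (x axis), for MAP2K7, MAPK12 and MAPK3. Each bar is 1 called peak, its length the length of the peak, in the colour of its replicate. Rings mark enriched peaks and the dotted line a log2 fold of 3. MAP2K7 has no called peak between 6 and 8.9 kb, and MAPK3 has 29 of 30 within 1.5 kb of the start.

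**Figure D4:**
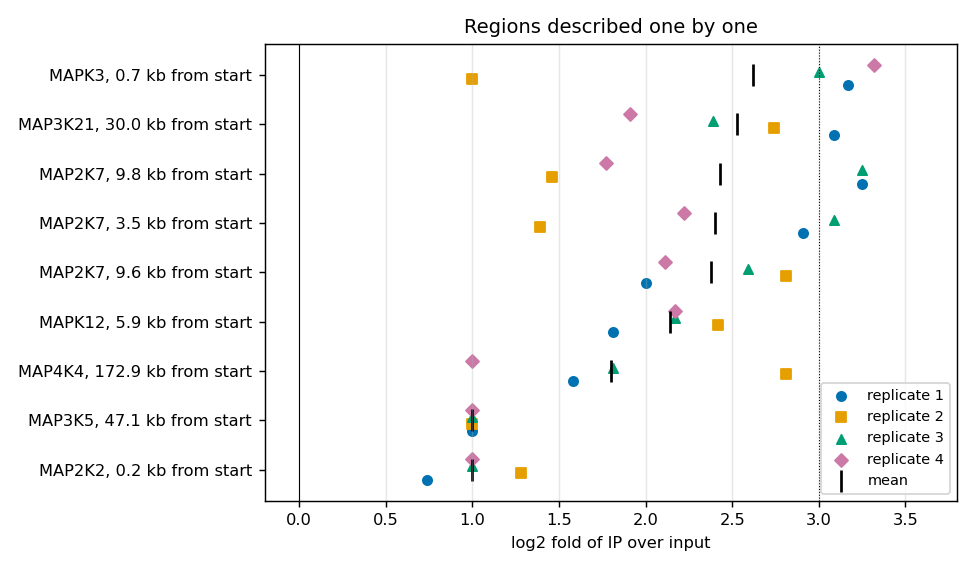
Log2 fold of IP over input (x axis) in each of the 4 replicates for the 9 regions described one by one as highest, lowest or holding an enriched peak, labelled by gene and distance of their middle from the gene start. Black ticks are means and the dotted line marks a log2 fold of 3. Each value is the fold of the library's most significant peak in the region. Every value lies above 0, and in the MAPK3 region replicate 2 is at 1.00 with the others at 3.0 to 3.32.

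Whole genes were compared by the mean log2 fold of all called peaks, in the 25 cascade genes with at least 10 called peaks in each library. Each library was centred on its median over the 6018 genes tested, so 0 is the typical gene. The other 17 genes had too few peaks. Of the 25, 4 (16%) were higher than the typical gene at a limma adjusted p of at most 0.05, against 22.8% of all genes tested, and 2 (8%) were lower, against 16.6%. The median was -0.01, as over all genes tested. The higher genes were MAP2K7, MAPK12, MAP2K2 and MAP2K3, and the lower included MAP4K5. None of the 10 tested MAP3K genes was called by limma in either direction, and 1 of them, MAP3K1, was lower at an unadjusted p under 0.05.

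MAP2K7 had centred means of 1.41, 1.38, 1.74 and 1.74 in replicates 1 to 4 (mean 1.57 ± 0.20, SD, n = 4, limma adjusted p = 7.76e-06). MAPK12 had 1.38, 1.22, 1.37 and 1.11 (mean 1.27 ± 0.13, SD, n = 4, limma adjusted p = 8.84e-06). The values of these genes lay above those of every other tested cascade gene in all 4 libraries. They ranked 136 and 214 among all 6018 genes, above the 95th percentile of 1.01. Both kept the call without any one replicate and with peaks weighted by length.

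MAP2K7 and MAPK12 are also the only tested cascade genes that span less than 15 kb. Among all 476 tested genes of that size, 248 (52.1%) were higher, with a median of 0.31 and a 95th percentile of 2.02, so means of 1.27 and 1.57 lay within the range of such genes. Across all tested genes, span and centred mean had a Spearman correlation of -0.158, as a description across genes. The part of gene length in these values was not tested. Between them, MAP2K7 and MAPK12 held 55 of the 258 peaks at least 4-fold above input (21.3%) with 3.51% of the called peaks. Without them the mean log2 fold of the cascade peaks was 0.18, 0.08, 0.03 and 0.11, against 0.23, 0.13, 0.09 and 0.16 with them.

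**Figure D5:**
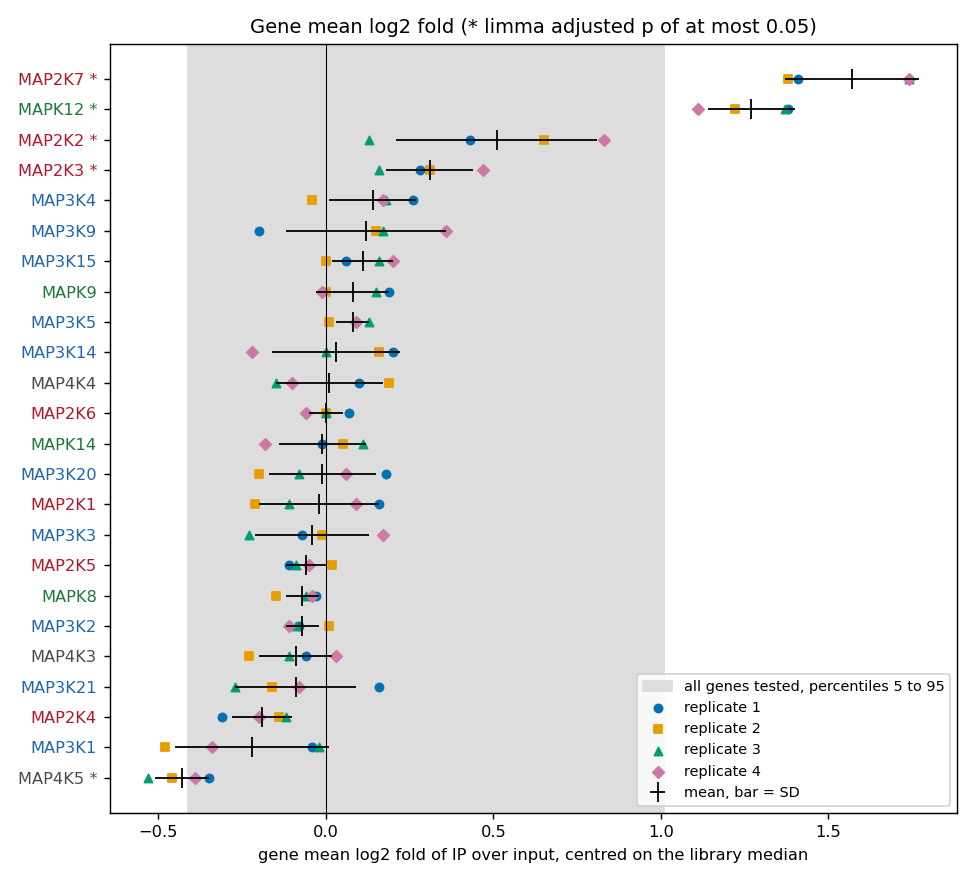
Centred mean log2 fold of all called peaks in a gene (x axis) for 24 of the 25 cascade genes with at least 10 called peaks in each library. Symbols are the 4 replicates, ticks their mean, bars the SD, and an asterisk marks a limma adjusted p of at most 0.05. The grey band holds percentiles 5 to 95 of all 6018 genes, and MAP2K7 and MAPK12 lie to the right of it.

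MAP2K2 had centred means of 0.43, 0.65, 0.13 and 0.83 (mean 0.51 ± 0.30, SD, n = 4, limma adjusted p = 0.00902). All 4 were above 0, replicate 3 least. MAP2K3 had 0.28, 0.31, 0.16 and 0.47 (mean 0.31 ± 0.13, SD, n = 4, limma adjusted p = 0.0128). Its call was lost without replicate 4 (limma adjusted p = 0.055) and with peaks weighted by length (limma adjusted p = 0.108). MAP2K1, the other MEK gene, had 0.16, -0.21, -0.11 and 0.09 and no call. Its difference from MAP2K2 was not tested.

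MAP4K5 was the lowest, with -0.35, -0.46, -0.53 and -0.39 (mean -0.43 ± 0.08, SD, n = 4, limma adjusted p = 0.0015). It had 11 called peaks at least 2-fold above input and 45 at least 2-fold below. Its call held without any one replicate, with limma adjusted p values of at most 0.00955.

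Among the genes too thin for this test, MAPK3 had uncentred means of 2.45, 1.08, 1.47 and 1.5 from 7 to 9 called peaks per library. MAPK15 had 0.90, 1.22, 1.19 and 1.05 from 9 to 15. MAP3K11 had 0.62, 0.72, 0.44 and 0.54 from 9 to 15. These genes, picked after their values were seen, lay above the library medians of 0.05 to 0.11 in all 4 libraries, as 4 of the 14 untested genes with a called peak in every library did. MAPK7, which encodes ERK5 and spans 5.79 kb, had means of 0.32, -0.14, 0.14 and 0.17 from 5 to 7 called peaks and did not lie above the median in replicate 2. MAPK3 and MAPK15, at 9.12 and 6.11 kb, are also short, and no test was run on any of these genes.

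Position along the gene was described without a test. Of the cascade peaks at least 4-fold above input, 12.5% ± 3.14 (SD, n = 4) were in the first 1 kb of the gene and 6.66% ± 1.73 in the last, against 5.59% ± 0.691 and 2.39% ± 0.552 of their called peaks. The ranges over the 4 libraries did not overlap, 9.46% to 16.4% against 4.93% to 6.3% for the first 1 kb and 4.55% to 8.77% against 1.85% to 3.16% for the last. The 4-fold peaks are themselves part of the called peaks they are set against. For all protein-coding genes both kinds of peak gave nearly the same shares, 5.66% ± 0.452 and 5.62% ± 0.188 for the first 1 kb. For the last 1 kb the shares over all these genes were 3.52% ± 0.144 and 3.4% ± 0.0552. By tier, the share of 4-fold peaks in the first 1 kb was 22.1% ± 7.64 in MAPK genes and 3.77% ± 2.94 in MAP3K genes. The MAPK share came from 18 peaks, of which 12 were in MAPK3 and 5 in MAPK15, genes of only 9.12 and 6.11 kb. The MAP3K share came from 3 peaks. In the first 1 kb of all cascade genes there were 32 such peaks in all, and MAPK3 held 12 of them and MAP2K2 9. Without MAPK3 the share was 8.16% ± 1.12, against 5% ± 0.735 of called peaks. MAP2K2 held 9 of the 20 such peaks then left. The share without both genes was not computed, so a higher share at the gene start beyond these genes is not shown. Of the 17 such peaks in the last 1 kb, 13 were in MAP2K7. Without MAP2K7 the share in the last 1 kb was 1.7% ± 2.23, 0% to 4.69% over the libraries, against 1.91% ± 0.564 of called peaks, so the higher share at the gene end rested on this gene.

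The 49 other genes of the pathway, listed by role, were treated the same way. Of these, 45 had a called peak, and 5 (11.1%) held 15 enriched peaks, against 8.5% of all protein-coding genes with a called peak: SPAG9 5, MINK1 4, TAOK2 2, MAPK8IP3 2 and MAPKAPK2 2. Of their 174 tested regions 35 (20.1%) were higher in limma and none lower (2 at an unadjusted p under 0.05), against 21.1% and 1.81% of all regions. Of their 28 tested genes 6 (21.4%) were higher and 4 (14.3%) lower, against 22.8% and 16.6% of all genes tested. The higher genes were the JNK scaffolds MAPK8IP3 and MAPK8IP2, the JNK phosphatase DUSP8, the upstream kinases TAOK2 and MINK1, and MAPKAPK2, a kinase that p38 activates. The lower genes included ELK4, a transcription factor target of ERK, and the kinases NLK and TAOK1.

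SPAG9, the JNK scaffold JIP4, held the only region of the pathway list that was enriched in all 4 libraries, at chr17:50975008-50975121 on the minus strand. Its log2 folds were 4.70, 4.39, 3.09 and 3.32 (mean 3.88 ± 0.79, SD, n = 4, limma adjusted p = 0.00548). All 4 values lay above 3, which none of the 165 regions of the cascade genes reached. Upstream of the cascade, HRAS, NRAS and the adaptor and exchange factor genes GRB2, SOS1 and SOS2 had called peaks in every library, and none of them was enriched. The early-response gene FOS and the ERK phosphatase genes DUSP4, DUSP5 and DUSP6 had no called peak in any library.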

How the data were processed

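The deposited files are 4 peak lists, 1 per IP library set against its input. They carry no header. Read from the values, the first deposited column is a −log10 p and the second deposited column a log2 fold of IP over input. Both are the authors' values. The submitters' processing notes name UMI-tools 1.1.1, cutadapt 3.2, STAR 2.7.7a and the builds hg38 and GRCh38.p13. The peak caller, the p-value test, the scaling of IP to input and the filters are not given in the sources used here. Depth is unknown.

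Genes came from RefSeq spans (GRCh38.p14). Strand came from the RefSeq promoter table for 38 genes. For the other 4, MAP3K1, MAP3K15 and MAPK15 among them, it is the strand with most called peaks, a rule that matched the table for 97.9% of 5920 genes with at least 40 peaks. On the gene's strand lay 99.3% of the peaks in the cascade genes. A fold was counted as at least 2-fold or 4-fold from a log2 of 0.9 or 1.9, just under the steps of the lists. Pseudogenes of MAPK6 (6), MAP2K1 (1) and MAP2K4 (1) make the peaks of these 3 genes uncertain.

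Regions and gene means were fitted over the whole tables with limma 3.58.1 in R 4.3.3 (intercept only, eBayes, two-sided, Benjamini-Hochberg), checked on simulated data. Tables were made with Python 3.11.15 and pandas 2.3.3. The named regions are, per tier, the one with the highest lowest value of 4, and those with the lowest means past limma, since no region was enriched in 3 or more replicates or had a passing mean of at least 3. Regions with enriched peaks, the called genes and the regions of MAP3K11 and MAP2K2 were named after their values were seen. The genes, lists and tests were chosen with earlier results of these data known. The values of some genes counted in the totals are not reported here. Alternatives were other thresholds, other assignments of peaks to genes, other moderation and leaving out each replicate.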

Additional observations from a re-analysis of the deposited data

Results flagged for a closer look

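In 35 sets of 4 replicate values, 1 had a replicate far from the other 3. Chance alone flags about 1 in 20 such sets, so 1 in 35 is not more often than chance gives. In the MAPK3 region at chr16:30122456-30122681 replicate 2 had a log2 fold of 1.00 while the others were between 3.0 and 3.32. These are folds of the most significant peak of each library. The replicate 4 peak that overlapped the enriched peak of this region was also at 1.00. Without replicate 2 the MAPK3 mean was 3.16 (limma adjusted p = 0.0504).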

How the results depend on the processing

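The mean of 1.5 enriched peaks per library became 0.25 when the −log10 p had to reach 5, 6 when p was not limited (chosen after seeing the data), and 0.667 to 2 without 1 replicate, lowest without replicate 3. No region was enriched in 3 or 4 libraries at the main threshold, and none in all 4 under any threshold tried. The 39 higher regions became 3 when tested against a log2 fold of 1 (MAP3K21, MAP2K7 and MAPK12), and 0 to 8 without 1 replicate, where fewer samples were tested. The 4 higher genes became 0 with at least 30 called peaks per library, where none of the 4 was tested, and 3 to 5 without 1 replicate. The 2 lower genes became 1 with at least 30 called peaks, 4 with length weights, 1 with strand from the promoter table only (1 of the 2 was then not tested, an alternative added later), and 1 to 2 without 1 replicate. No called value reversed. Of 72 region values under alternatives 42 lost the call, against a log2 fold of 1, without 1 replicate or, for the MAP2K2 region, with the mean fold of all its peaks (added later), and of 35 gene values 2 did.

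No paired analysis was possible because the authors had set each IP against its own input before deposit, so that no separate input values enter a fit. The planned motif share of the enriched regions and the exon classes were not run, since the sequence under those regions and an exon table were not used here. Unknown depth limits how far folds on low steps can be read.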
